A study of Mus musculus with 13 samples.

Results

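The antioxidant enzymes and metallothioneins described here are 10 genes taken as a list by name: Mt1, Mt2, Nqo1, Hmox1, Gclc, Gclm, Sod1, Sod2, Cat and Gpx1. No measured value set its members, but the list was written with earlier results of these data known. All 10 were found among the 24015 genes of the expression table, and all 10 were among the 11876 genes that reached 1 TPM (the length-scaled abundance of a transcript relative to all others) in at least 3 libraries. RNA of whole quadriceps of C57BL/6 mice was sequenced in 13 libraries, to compare aged with young muscle and aged muscle with and without SW033291, a small-molecule inhibitor of 15-PGDH, the enzyme that degrades prostaglandin E2. From batch 2 came 3 libraries of aged mice, whose label gives an age over 24 months, injected daily with 5 mg/kg SW033291, replicates 1, 4 and 6, and 3 libraries of aged mice injected with vehicle, replicates 2, 3 and 8. From batch 1 came 3 aged vehicle libraries, replicates 2, 3 and 4, and 4 libraries of young mice (3 months) that also received vehicle, replicates 1, 3, 4 and 5. Every mouse received daily intraperitoneal injections for 4 weeks, and the vehicle contained ethanol, Cremophor EL and dextrose in water. All SW033291 libraries used are of batch 2 and all young libraries of batch 1, and young muscle with SW033291 was not analysed here. The labels name the batches without saying what they mark, and are silent on whether the libraries stem from different animals. The p-values therefore describe the spread among these libraries, which may be technical.

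Metallothioneins are small cysteine-rich proteins that bind zinc and copper, and their genes are switched on by the metal-sensing factor MTF1 and by glucocorticoids. The other 8 genes encode enzymes. Superoxide dismutases turn superoxide into hydrogen peroxide, catalase and glutathione peroxidase remove the peroxide, glutamate-cysteine ligase makes the precursor of glutathione, and NQO1 and haem oxygenase 1 handle quinones and haem. Nqo1, Hmox1, Gclc and Gclm are standard targets of NRF2, a factor released from its inhibitor KEAP1 under oxidative or electrophilic stress. In muscle, contracting fibres and their mitochondria are a main source of the superoxide and peroxide on which these enzymes act.

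Differences were tested with limma on log2(TPM + 1), with p-values adjusted over all 11876 genes by the Benjamini-Hochberg method and 0.05 as the threshold. For genes at low TPM, folds on this scale come out too small, most of all at about 1 TPM or less. None of the 10 genes passed in any of the 3 comparisons. For aged against young vehicle in batch 1, 0.455% of all tested genes passed. For SW033291 against vehicle in aged muscle of batch 2, 0.0% passed, that is 0 genes by limma, although 1221 had an unadjusted p below 0.05. For aged vehicle of batch 2 against aged vehicle of batch 1, 2.25% passed. The age and batch comparisons share the aged vehicle libraries of batch 1, and the SW033291 and batch comparisons share those of batch 2. In whole muscle, fewer cells of a type and less RNA per cell cannot be told apart. In the deposited table names and values stood on different rows, and every value rests on the order rebuilt as the processing account states. The values below are given library by library, with intervals that show what size of difference the data allow.

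The promoter stretches of both metallothionein genes are shown because these genes had the widest spread among the 10 and the largest differences with age and between batches, though not with SW033291 for Mt2, and because the metal response elements that MTF1 binds lie in such promoters. The sequences are from RefSeq in the build GRCm38.p6 and read 5′ to 3′ on the plus strand. They are the 250 bases before the listed start of Mt2 at chr8:94172368-94172617 and the 30 bases before the listed start of Mt1 at chr8:94179059-94179088. Capitals mark matches on either strand to TGCNCNC, a loose form of the core of a metal response element. N stands for any base, so a match need not fit the stricter core.
Mt2: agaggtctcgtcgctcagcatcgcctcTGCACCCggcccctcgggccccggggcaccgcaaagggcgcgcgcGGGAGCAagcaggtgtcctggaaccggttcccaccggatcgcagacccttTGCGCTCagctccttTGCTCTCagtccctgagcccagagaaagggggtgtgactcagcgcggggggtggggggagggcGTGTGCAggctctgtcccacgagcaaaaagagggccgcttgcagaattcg
Mt1: cccgctgTGCACACtggcgctccagggagc

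The Mt2 window held 5 matches to this loose form, with first bases 223, 178, 128, 113 and 50 bases before the start. Of 32851 mouse promoter windows of 250 bases, 44.4% held at least 1 match and 0.344% held 5 or more. The Mt1 window, also of 250 bases though only its last 30 are printed, held 1 match, 23 bases before the listed start. That start lies 206 bases inside the annotated Mt1 gene, so most of the sequence before the gene itself was not searched. The Mt1 count therefore cannot be ranked with those of the other windows. The windows of Nqo1 and Gclm held 2 matches each, and those of Sod1, Sod2, Cat and Gpx1 held 0. TGACNNNGC, the core of the antioxidant response element that NRF2 binds, was searched on both strands too and was held by 10.2% of the windows. It occurred 1 time each before Mt2 (79 bases before the start, in the stretch printed above and not overlapping a capital), Gclm and Sod1, and did not occur in the windows of Mt1, Nqo1, Sod2, Cat and Gpx1. A match is a stretch of letters and not a shown binding site. Mt1, Mt2, Nqo1 and Hmox1 lie on chromosome 8, Gclc and Gpx1 on chromosome 9, Gclm on chromosome 3, Cat on chromosome 2, Sod1 on chromosome 16 and Sod2 on chromosome 17.

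Mt1, which encodes metallothionein 1, was measured at 319.9, 115 and 227 TPM in the SW033291 libraries and at 272, 369 and 36.3 TPM in the aged vehicle libraries of batch 2. In batch 1, Mt1 had 102, 79.6 and 54.3 TPM in the aged vehicle libraries and 49.5, 69.3, 31.7 and 36.6 TPM in the young libraries. Aged and young libraries of batch 1 overlapped, as did SW033291 and vehicle libraries, and aged vehicle replicate 8 of batch 2 lay within the young range while the other two of its group lay far above it. Group means were 221 ± 103 TPM with SW033291 and 226 ± 171 TPM with vehicle in batch 2 (SD, n = 3 each), and 78.7 ± 23.9 TPM in aged (n = 3) and 46.8 ± 16.8 TPM in young muscle (n = 4) in batch 1.

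Mt2, the neighbouring gene for metallothionein 2, was measured at 357, 95.3 and 259 TPM in the SW033291 libraries and at 360.4, 509.7 and 67.1 TPM in the aged vehicle libraries of batch 2. In batch 1, Mt2 had 89.6, 53.0 and 47.35 TPM in the aged vehicle libraries and 19.8, 41.5, 14.0 and 14.9 TPM in the young libraries. All 3 aged libraries of batch 1 lay above all 4 young ones, while SW033291 and vehicle libraries overlapped in batch 2. Group means were 237 ± 132 TPM with SW033291 and 312 ± 225 TPM with vehicle in batch 2, and 63.3 ± 22.9 TPM in aged and 22.6 ± 12.9 TPM in young muscle in batch 1.

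For aged against young muscle the log2 difference was 1.53 for Mt2 (SE 0.61, 95% interval 0.21 to 2.85, limma adjusted p = 0.39), a fold of 2.88, and 0.76 for Mt1 (SE 0.61, interval -0.56 to 2.08, limma adjusted p = 0.78). In the authors' deposited table for age, which lists 813 genes, the log2 fold change of Mt2 was 2.81 (SE 0.763) with an adjusted p of 0.0114, and Mt1 is not among the genes listed. Which libraries entered that table is not given in the sources used here. With the aged vehicle libraries of both batches against the young libraries, the Mt2 difference was 2.48 by limma (adjusted p = 0.049) and the Mt1 difference 1.26 (adjusted p = 0.22). With those of batch 2 alone, the Mt2 difference was 3.44 (limma adjusted p = 0.0047) and the Mt1 difference 1.77 (adjusted p = 0.07). Both of these fits place batch 2 libraries against young libraries that are all of batch 1, so in what batch 2 adds, the effect of age and that of batch cannot be told apart.

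With SW033291 the log2 difference was 0.39 for Mt1 (SE 0.66, 95% interval -1.02 to 1.80, limma adjusted p = 0.83) and -0.16 for Mt2 (SE 0.66, interval -1.57 to 1.25, limma adjusted p = 0.94). The intervals span more than a log2 unit on either side of 0, so differences of that size were not detectable here. Without aged vehicle replicate 8 of batch 2 the differences were -0.64 for Mt1 and -1.05 for Mt2. In the authors' deposited table for SW033291 the log2 fold changes were 0.107 for Mt1 (SE 0.86) and -0.135 for Mt2 (SE 0.914).

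Between the aged vehicle groups, batch 2 against batch 1, the log2 difference was 1.91 for Mt2 (SE 0.66, 95% interval 0.50 to 3.32, limma adjusted p = 0.14) and 1.01 for Mt1 (SE 0.66, interval -0.40 to 2.42, limma adjusted p = 0.45). Without replicate 8 of batch 2 the differences were 2.80 for Mt2 (limma adjusted p = 0.016) and 2.04 for Mt1 (limma adjusted p = 0.021), so this 1 library decided both calls. For Mt2, libraries of the same age, strain and treatment thus differed between batches by more than the 1.53 by which aged and young libraries differed within batch 1. The difference between these 2 differences was not tested.

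**Figure D1:**
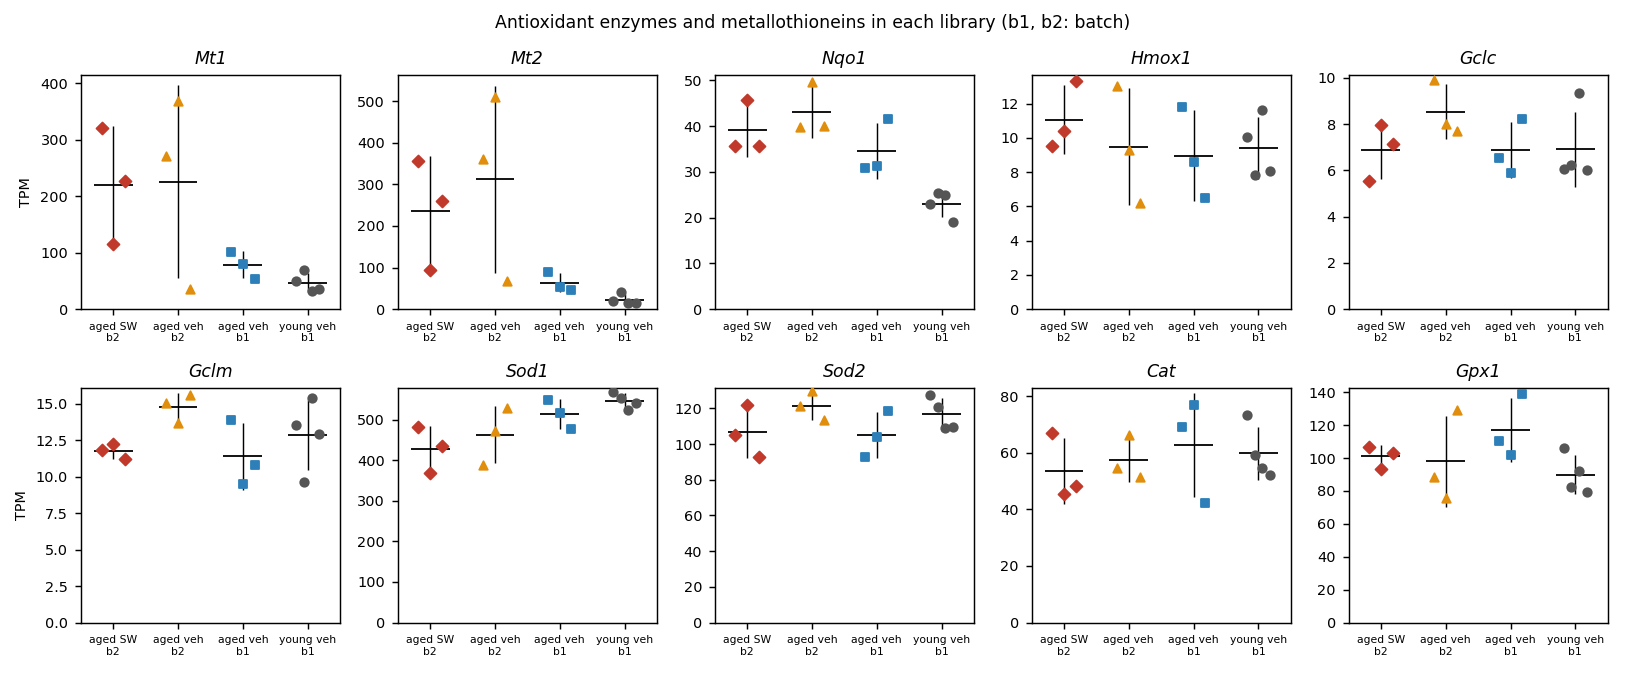
TPM of each of the 10 genes in each library, with a linear axis from 0 for each gene. Symbols are libraries, horizontal bars group means and vertical bars the SD (n = 3, and 4 for young). In the Mt1 panel the aged vehicle libraries of batch 2 lie between 36.3 and 369 TPM, while in the Nqo1 panel all 4 young libraries lie below all 9 aged ones.

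The 2 metallothioneins also varied most within groups. The SD of log2(TPM + 1) around the group means was 0.98 for each, against a median of 0.25 over all tested genes, and 1.06% (Mt1) and 1.07% (Mt2) of tested genes varied more. Within the aged vehicle group of batch 2 the highest library had 10.2 times the Mt1 and 7.6 times the Mt2 of the lowest. Hmox1 (SD 0.34) and Cat (0.30) also stood above the median, Gpx1 (0.24), Gclc (0.23), Nqo1 and Gclm (0.20 each) were at or below it, and Sod1 and Sod2 (0.15 each) varied least of the 10.

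Mt1 and Mt2 moved together across libraries. Over the 13 libraries their log2(TPM + 1) had a Pearson r of 0.947 (two-sided permutation p = 2e-05, the smallest that 100000 resamples can give) and a Spearman rho of 0.907 (permutation p = 0.0001). The permutations ran over all 13 libraries regardless of group, so these p-values also take in differences between groups. The relation of Mt1 with Mt2 was the only one tested, so no adjustment applied. Without the 2 libraries farthest from the median of Mt1, aged vehicle replicate 3 of batch 2 and SW033291 replicate 1, r was 0.913. Within batch 2, r was 0.953 over 6 libraries, and within batch 1 it was 0.949 over 7. The deviations from the group means had an r of 0.968 over 13 libraries, with the differences between groups removed. The coding sequences of the pair are alike, and how reads that fit both were divided is not given in the sources used here, and its part in their agreement was not tested.

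The ratio of Mt2 to Mt1 TPM, looked at after the values had been seen, did not overlap between the groups compared. It was 1.12, 0.83 and 1.14 in the SW033291 libraries and 1.32, 1.38 and 1.85 in the aged vehicle libraries of batch 2. In batch 1 the ratio was 0.88, 0.67 and 0.87 in the aged and 0.40, 0.60, 0.44 and 0.41 in the young libraries. This held in each of the 3 comparisons, and aged vehicle replicate 8 of batch 2, at a young level of Mt1, had the highest ratio of all. The mean ratio was 0.80 ± 0.12 in aged (SD, n = 3) and 0.46 ± 0.09 in young muscle (n = 4), with a log2 difference of 0.81 (exact permutation p = 0.057, two-sided). It was 1.03 ± 0.17 with SW033291 and 1.52 ± 0.29 with vehicle in batch 2, a log2 difference of -0.56 (exact permutation p = 0.1). Between the aged vehicle groups it was 1.52 ± 0.29 in batch 2 and 0.80 ± 0.12 in batch 1, a log2 difference of 0.91 (exact permutation p = 0.1). These are the smallest p-values that groups of this size can give, so none could pass 0.05, and the ratio was chosen with its values in view.

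**Figure D2:**
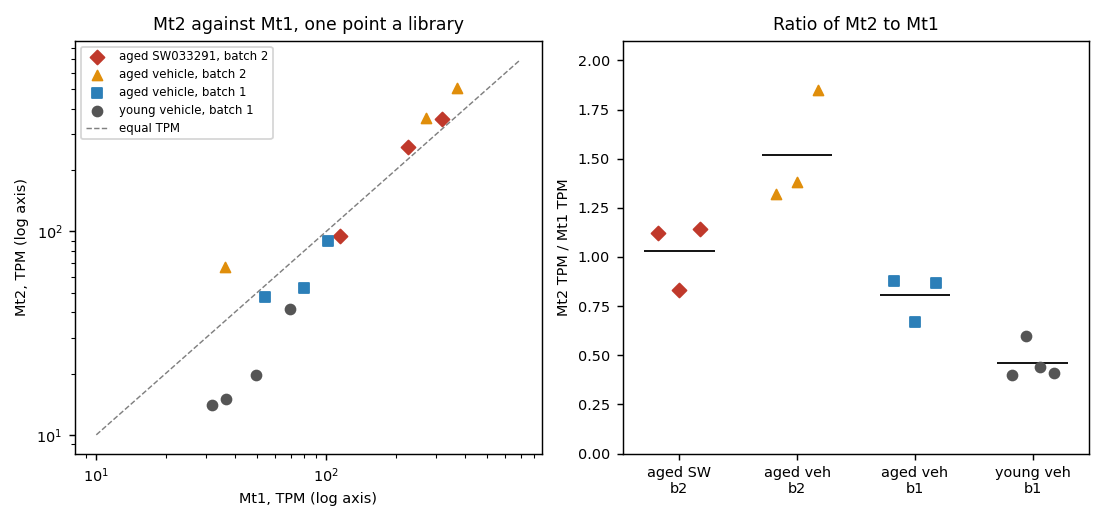
Left, Mt2 against Mt1 TPM on log axes with 1 point a library, where the dashed line marks equal TPM. Right, the ratio of Mt2 to Mt1 TPM in each library with the group means as bars, where all 4 young libraries lie between 0.40 and 0.60 and the aged vehicle libraries of batch 2 between 1.32 and 1.85.

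Nqo1 encodes a quinone reductase and is the usual readout of NRF2. It was measured at 35.7, 45.8 and 35.7 TPM in the SW033291 libraries and at 39.8, 49.7 and 39.9 TPM in the aged vehicle libraries of batch 2. In batch 1, Nqo1 had 30.9, 31.3 and 41.6 TPM in the aged and 22.9, 25.3, 24.9 and 19.0 TPM in the young libraries. Aged and young libraries did not overlap, and SW033291 and vehicle libraries did. The log2 difference of aged against young was 0.56 (SE 0.15, 95% interval 0.24 to 0.89, limma adjusted p = 0.14), a fold of 1.48. In the authors' deposited table for age, the log2 fold change of Nqo1 was 0.591 (SE 0.141) with an adjusted p of 0.00235. With the aged vehicle libraries of both batches, the difference from young was 0.72 (limma adjusted p = 0.016), and with those of batch 2 alone 0.88 (limma adjusted p = 0.0042). With SW033291 the difference was -0.14 (interval -0.49 to 0.20, limma adjusted p = 0.75), and between the aged vehicle groups, batch 2 against batch 1, it was 0.32 (interval -0.03 to 0.66, limma adjusted p = 0.32).

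Mt2 and Nqo1 were thus 2 of the 10 genes whose aged and young libraries of batch 1 did not overlap, both higher in aged muscle, against 11.6% of all tested genes in either direction. They were also the 2 of 10 with all 9 aged libraries, treated or not and of either batch, on 1 side of all 4 young ones, against 4.08% of tested genes. The young libraries are all of batch 1, so this count does not tell age from batch. The lowest aged and highest young values were 47.35 and 41.5 TPM for Mt2, and 30.9 and 25.3 TPM for Nqo1.

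Hmox1 encodes the inducible haem oxygenase, which splits haem into biliverdin, iron and carbon monoxide. It was measured at 9.51, 10.4 and 13.3 TPM in the SW033291 libraries and at 13.02, 9.28 and 6.20 TPM in the aged vehicle libraries of batch 2. In batch 1, Hmox1 had 11.8, 8.60 and 6.52 TPM in the aged and 10.1, 7.85, 11.65 and 8.07 TPM in the young libraries. The groups overlapped in all 3 comparisons. The log2 differences were -0.08 with age (SE 0.24, 95% interval -0.59 to 0.43, limma adjusted p = 0.96), 0.24 with SW033291 (SE 0.25, interval -0.30 to 0.79, limma adjusted p = 0.73) and 0.06 for batch 2 against batch 1 (SE 0.25, interval -0.49 to 0.60, limma adjusted p = 0.94). Macrophages, which take up haem, also express this gene. A list of 13 macrophage markers, 12 of them in the table, was summed in each library, given here in the order of the Hmox1 values. The sums were 54.4, 68.0 and 43.7 TPM with SW033291 and 74.8, 43.5 and 73.2 TPM with vehicle in batch 2. In batch 1 they were 43.8, 42.5 and 73.0 TPM in the aged and 119, 108, 36.5 and 61.2 TPM in the young libraries. The part of these cells in the Hmox1 values was not tested.

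Gclc and Gclm encode the catalytic and the modifier subunit of glutamate-cysteine ligase, the first enzyme of glutathione synthesis. Gclm was measured at 11.9, 12.2 and 11.2 TPM in the SW033291 libraries and at 15.0, 13.7 and 15.6 TPM in the aged vehicle libraries of batch 2. In batch 1, Gclm had 13.9, 9.48 and 10.8 TPM in the aged and 13.5, 9.62, 15.4 and 12.9 TPM in the young libraries. All 3 SW033291 libraries lay below all 3 vehicle libraries, while aged and young libraries overlapped. Gclm was the 1 gene of the 10 whose SW033291 and vehicle libraries did not overlap, against 17.1% of all tested genes, so this share is below the background. The mean was 11.8 ± 0.52 TPM with SW033291 and 14.8 ± 0.98 TPM with vehicle (SD, n = 3 each), a log2 difference of -0.31 (SE 0.17, 95% interval -0.68 to 0.07, limma adjusted p = 0.55). This difference was smaller under other scalings, at -0.17 with median-of-ratios scaling and -0.15 with quantile normalization. In the authors' deposited table for SW033291 the log2 fold change of Gclm was -0.103 (SE 0.278). With age the difference was -0.16 (interval -0.51 to 0.19, limma adjusted p = 0.83).

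Gclc was measured at 5.52, 7.96 and 7.12 TPM in the SW033291 libraries and at 9.91, 8.0 and 7.72 TPM in the aged vehicle libraries of batch 2. In batch 1, Gclc had 6.54, 5.88 and 8.21 TPM in the aged and 6.08, 6.22, 9.35 and 6.01 TPM in the young libraries. The groups overlapped in all 3 comparisons, and young replicate 4 stood apart from the other three young libraries. The log2 difference was -0.28 with SW033291 (SE 0.20, 95% interval -0.71 to 0.14, limma adjusted p = 0.61) and 0.00 with age (SE 0.18, interval -0.39 to 0.40, limma adjusted p = 1.0). Between the aged vehicle groups, batch 2 against batch 1, it was 0.28 for Gclc (interval -0.14 to 0.70, limma adjusted p = 0.49) and 0.36 for Gclm (interval -0.01 to 0.74, limma adjusted p = 0.29). Of the 10 genes, 0 had aged vehicle libraries of the 2 batches that did not overlap, against 16.5% of all tested genes.

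Sod1, the copper-zinc superoxide dismutase of the cytosol, was the most abundant of the 10 enzymes and metallothioneins in batch 1. It was measured at 481, 369 and 436 TPM in the SW033291 libraries and at 388, 473 and 528 TPM in the aged vehicle libraries of batch 2. In batch 1, Sod1 had 549, 515 and 477 TPM in the aged and 568, 552, 523 and 542 TPM in the young libraries. The groups overlapped in each comparison. The log2 difference was -0.09 with age (SE 0.11, 95% interval -0.34 to 0.16, limma adjusted p = 0.88) and -0.11 with SW033291 (SE 0.12, interval -0.37 to 0.15, limma adjusted p = 0.75). Between the aged vehicle groups, batch 2 against batch 1, it was -0.16 (interval -0.42 to 0.10, limma adjusted p = 0.54).

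Sod2, the manganese superoxide dismutase of the mitochondrial matrix, was measured at 105, 122 and 93.0 TPM in the SW033291 libraries and at 121, 129.6 and 114 TPM in the aged vehicle libraries of batch 2. In batch 1, Sod2 had 92.5, 104 and 118 TPM in the aged and 128, 121, 109 and 109 TPM in the young libraries. The groups overlapped in each comparison. The log2 difference was -0.15 with age (SE 0.12, 95% interval -0.40 to 0.10, limma adjusted p = 0.75), -0.19 with SW033291 (SE 0.12, interval -0.46 to 0.07, limma adjusted p = 0.59) and 0.21 for batch 2 against batch 1 (SE 0.12, interval -0.05 to 0.48, limma adjusted p = 0.39). For both dismutases the intervals with age and with SW033291 lie within 0.5 log2 units of 0.

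Cat encodes catalase, the peroxide-removing enzyme of peroxisomes. It was measured at 66.9, 45.6 and 48.4 TPM in the SW033291 libraries and at 54.5, 66.2 and 51.5 TPM in the aged vehicle libraries of batch 2. In batch 1, Cat had 69.15, 77.0 and 42.2 TPM in the aged and 73.2, 59.2, 54.6 and 52.1 TPM in the young libraries. The groups overlapped in each comparison, and the aged libraries of batch 1 held both the highest and the lowest value of all 13. The log2 difference was 0.04 with age (SE 0.20, 95% interval -0.39 to 0.47, limma adjusted p = 0.97) and -0.11 with SW033291 (SE 0.21, interval -0.57 to 0.35, limma adjusted p = 0.86). Between the aged vehicle groups, batch 2 against batch 1, it was -0.09 (interval -0.55 to 0.37, limma adjusted p = 0.88).

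Gpx1, the selenium-dependent glutathione peroxidase of cytosol and mitochondria, was measured at 107, 93.3 and 103 TPM in the SW033291 libraries and at 88.6, 76.0 and 129 TPM in the aged vehicle libraries of batch 2. In batch 1, Gpx1 had 111, 102 and 139 TPM in the aged and 106, 82.55, 92.1 and 79.2 TPM in the young libraries. Aged and young libraries overlapped only in that aged replicate 3 lay below young replicate 1. The mean was 117 ± 19.5 TPM in aged (SD, n = 3) and 90.0 ± 12.0 TPM in young muscle (n = 4), a log2 difference of 0.38 (SE 0.17, 95% interval 0.01 to 0.74, limma adjusted p = 0.48). With SW033291 it was 0.08 (interval -0.31 to 0.47, limma adjusted p = 0.87), and for batch 2 against batch 1 it was -0.28 (interval -0.67 to 0.11, limma adjusted p = 0.44).

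Red blood cells carry much Gpx1 and catalase. A list of 13 erythroid markers, 11 of them in the table, summed to 353 to 707 TPM with SW033291 and 260 to 2190 TPM with vehicle in batch 2. In batch 1 it summed to 297, 512 and 3770 TPM in the aged and 314 to 658 TPM in the young libraries. The 3770 TPM belonged to aged replicate 4, the library with the highest Gpx1 and the lowest Cat, and without it the Gpx1 difference with age was 0.25 (limma adjusted p = 0.67). In batch 2 the 2190 TPM belonged to aged vehicle replicate 2, whose Gpx1 was 88.6 TPM, and the highest Gpx1 of that group, 129 TPM, stood beside an erythroid sum of 518 TPM. Beyond these values, the part of erythroid RNA in the Gpx1 difference was not tested.

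**Figure D3:**
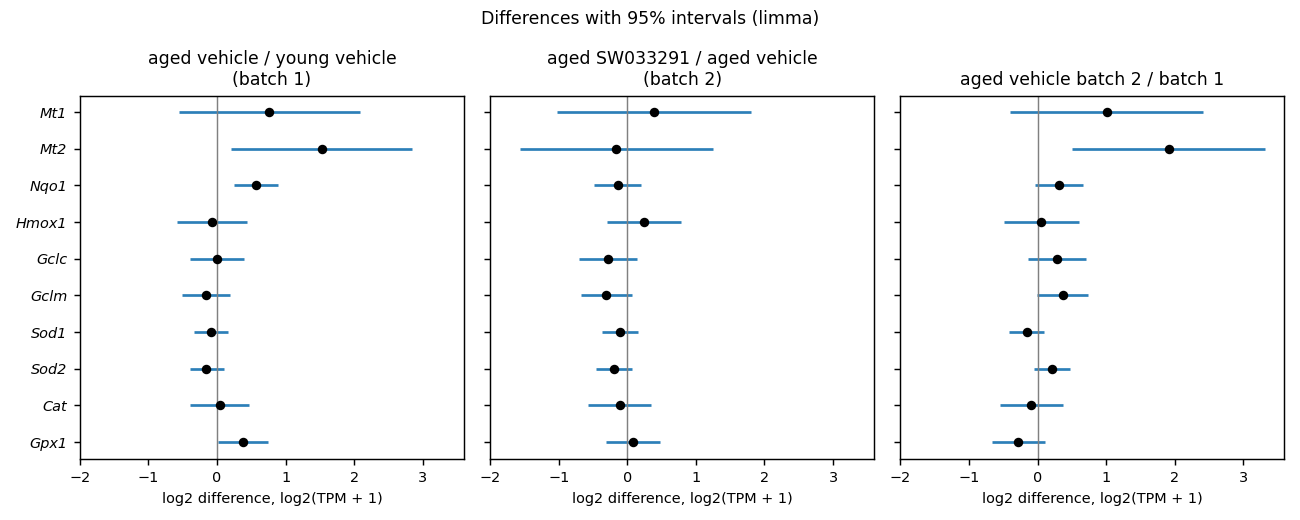
Log2 differences of the 10 genes in log2(TPM + 1) for the 3 comparisons, aged over young, SW033291 over vehicle and batch 2 over batch 1. Points are limma estimates and lines 95% intervals. With age the intervals of Mt2, Nqo1 and Gpx1 lie above 0 before adjustment over all genes, with SW033291 all 10 intervals include 0, and for batch 2 over batch 1 only that of Mt2 does not.

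Over the 10 genes the median log2 difference with age was 0.02, beside 0.06 over all tested genes. With SW033291 it was -0.13, the same as the -0.13 over all tested genes, with 3 differences above 0 and 7 below. Between the aged vehicle groups, batch 2 against batch 1, it was 0.25 beside 0.11. Under median-of-ratios scaling these medians over all genes shrank, as this scaling moved the median of all genes to -0.00 with SW033291 and to -0.01 between batches. With SW033291 it brought Gclc to -0.15 and Sod2 to -0.05, nearer to 0, and Hmox1 to 0.38 and Gpx1 to 0.23, farther from 0. By level, Sod1, Sod2 and Gpx1 stood near or above 90.0 TPM in every group mean, Cat and Nqo1 between 23.0 and 62.8 TPM, and Gclm, Hmox1 and Gclc between 6.87 and 14.8 TPM. The metallothioneins kept no fixed place in this order. Mt2 averaged 22.6 TPM in young muscle, below Nqo1 at 23.0 TPM and closer to it than the spread of either, while in aged vehicle muscle of batch 2 it averaged 312 TPM, above Sod2 at 121 TPM and below Sod1 at 463 TPM.

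Other genes of these pathways were read from 10 lists that, like the 10 genes, were written with earlier results of these data known. Of 30 tested genes of glutathione synthesis and use, 0 passed in any comparison, with a median log2 difference of -0.01 with age, 0.04 with SW033291 and -0.05 for batch 2 against batch 1. Those with the lowest p with age were Chac1, which degrades glutathione, at 191 ± 28.1 TPM in aged and 90.0 ± 19.9 TPM in young muscle (log2 difference 1.09, limma adjusted p = 0.098), and Gpx4, the peroxidase of membrane lipids, at 748 ± 44.6 TPM in aged and 572 ± 26.2 TPM in young muscle (0.39, limma adjusted p = 0.11). Chac1 averaged 87.7 ± 25.2 TPM in the aged vehicle libraries of batch 2, close to the young level of batch 1, and its difference between batches was -1.14 (limma adjusted p = 0.058). With SW033291 the glutathione transferase gene Gstt2 had 6.33 ± 2.33 TPM, against 3.02 ± 1.08 TPM with vehicle (0.85, limma adjusted p = 0.42), and the glutathione reductase gene Gsr had 15.4 ± 2.89 TPM, against 21.0 ± 1.88 TPM with vehicle (-0.43, limma adjusted p = 0.42).

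Of 21 tested thioredoxin and peroxiredoxin genes, 0 passed in any comparison, with medians of 0.13 with age, -0.03 with SW033291 and -0.11 between batches. Srxn1, which encodes sulfiredoxin, an NRF2 target that restores oxidised peroxiredoxins, had 29.1, 29.9 and 26.4 TPM in the aged and 17.5, 19.1, 16.6 and 20.05 TPM in the young libraries of batch 1. These libraries did not overlap, as for Nqo1 and for 11.6% of all tested genes. The log2 difference was 0.61 (SE 0.13, limma adjusted p = 0.058). In batch 2 it had 30.7, 28.4 and 27.5 TPM with SW033291 and 34.7, 36.9 and 26.1 TPM with vehicle, all above the young range. Msrb1, a selenium-dependent reductase of oxidised methionine, lay the other way, at 261 ± 11.9 TPM in aged and 370.0 ± 55.5 TPM in young muscle (-0.49, limma adjusted p = 0.14).

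Of 28 tested NRF2 regulators, relatives and NADPH-making genes, 1 rose with age and 0 fell, with a median of 0.01, and 0 passed with SW033291 or between batches. The gene that rose was Nfe2l1, the NRF2 relative that controls proteasome genes, at 499 ± 55.1 TPM in aged and 315 ± 33.3 TPM in young muscle, a log2 difference of 0.66 (SE 0.10, limma adjusted p = 0.011). It passed in 7 of 7 fits that left out 1 library, but not when only the 2 groups entered the fit (limma adjusted p = 0.073). With SW033291 Nfe2l1 had 416 ± 14.7 TPM, against 507 ± 26.8 TPM with vehicle (-0.28, limma adjusted p = 0.42).

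Of 21 tested metal-handling genes, 0 passed with age or with SW033291, and 1 rose in batch 2 against batch 1. This was Slc39a1, a zinc importer of the cell surface, at 51.8 ± 0.79 TPM in batch 2 and 33.5 ± 2.61 TPM in batch 1 (log2 difference 0.62, SE 0.13, limma adjusted p = 0.031), which passed in 2 of 6 fits that left out 1 library. Mt3, a metallothionein known mainly from brain, had 15.1, 4.91 and 9.67 TPM in the aged and 1.48, 3.20, 1.34 and 1.25 TPM in the young libraries of batch 1. No young library reached the lowest aged one, and the log2 difference was 1.89 (SE 0.41, limma adjusted p = 0.06). Such a lack of overlap, in either direction, was found for 11.6% of all tested genes. In batch 2, where Mt1 and Mt2 were highest, Mt3 had 9.05, 10.3 and 3.35 TPM with SW033291 and 7.91, 3.11 and 3.05 TPM with vehicle. Mtf1, the metal-sensing factor itself, had 4.72 ± 0.07 TPM with SW033291 and 7.42 ± 1.37 TPM with vehicle (-0.54, limma adjusted p = 0.42).

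Of 22 tested glucocorticoid-responsive genes, 0 passed in any comparison, with medians of 0.06 with age, -0.03 with SW033291 and 0.27 between batches, beside 0.11 over all tested genes for the last. Fkbp5, a chaperone of the glucocorticoid receptor that the receptor itself induces, had 77.0, 80.9 and 93.4 TPM with SW033291, and 64.2, 61.6 and 34.05 TPM with vehicle in batch 2. In batch 1 Fkbp5 had 30.4, 28.5 and 14.1 TPM in the aged and 21.9, 36.3, 25.1 and 32.9 TPM in the young libraries. All SW033291 libraries lay above all vehicle libraries of batch 2, with a log2 difference of 0.69 (limma adjusted p = 0.45). Of the 22 genes, 2 lay wholly above and 1 wholly below with SW033291, while 17.1% of all tested genes did not overlap. The 2 aged vehicle groups did not overlap for Fkbp5, with a log2 difference of 1.12 for batch 2 against batch 1 (limma adjusted p = 0.062). Between batches 4 of the 22 genes lay wholly above and 0 wholly below, while 16.5% of all tested genes did not overlap. The vehicle library of batch 2 lowest in Mt1 and Mt2, replicate 8, was also the lowest of batch 2 for Fkbp5. Zbtb16, another gene induced by the receptor, had 52.7, 67.5 and 17.5 TPM in the aged vehicle libraries of batch 2 and 17.3, 17.2 and 12.25 TPM in those of batch 1 (log2 difference 1.32, limma adjusted p = 0.074), again with replicate 8 lowest in batch 2. With SW033291 it had 37.6, 49.3 and 37.2 TPM, highest in replicate 4, the SW033291 library lowest in Mt1 and Mt2. In the young libraries Zbtb16 had 14.9, 11.4, 17.7 and 16.8 TPM, lowest in replicate 3, the young library highest in Mt1 and Mt2. The part of glucocorticoids in the metallothionein values was not tested.

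Of 12 tested acute phase and stress transcripts, 0 passed with age or with SW033291, and 1 rose in batch 2 against batch 1. This was Stat3, the factor activated by interleukin 6, at 41.9 ± 12.9 TPM in batch 2 and 21.1 ± 3.46 TPM in batch 1 (log2 difference 0.92, SE 0.21, limma adjusted p = 0.039). It passed in 3 of 6 fits that left out 1 library, and neither Stat3 nor Slc39a1 passed after median-of-ratios scaling (limma adjusted p = 0.0747 and 0.0785). Of 20 haem and iron genes, 11 superoxide sources with the extracellular dismutase Sod3, 26 peroxisomal genes and 18 genes of mitochondrial energy metabolism, 0 passed in any comparison. Sod3 had 8.46 ± 5.02 TPM in aged and 14.1 ± 4.00 TPM in young muscle (log2 difference -0.76, limma adjusted p = 0.51). Cpox, an enzyme of haem synthesis, had 12.9 ± 0.86 TPM with SW033291 and 19.4 ± 1.01 TPM with vehicle (-0.55, limma adjusted p = 0.34). Pex11a, which acts in peroxisome division, had 16.7 ± 2.28 TPM with SW033291 and 28.7 ± 8.71 TPM with vehicle (-0.72, limma adjusted p = 0.41). Cox5a, a subunit of cytochrome oxidase, had 1484 ± 67.8 TPM in batch 2 and 1220.5 ± 45.6 TPM in batch 1 of aged vehicle muscle (0.28, limma adjusted p = 0.14).

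The other genes of these lists with the lowest p lay on both sides of 0. With SW033291 the log2 differences above 0 were 1.32 for Angptl4, an inhibitor of lipoprotein lipase, 1.03 for Ucp3, an uncoupling protein of muscle mitochondria, 0.63 for Sod3, 0.29 for Msrb1 and 0.17 for Cox5a. Those below 0 were -0.67 for Hspa1b and -0.66 for Hspa1a, which encode inducible heat shock proteins, -0.54 for the zinc transporter gene Slc30a5, -0.53 for Sesn2, -0.52 for Pex26, -0.48 for Abcc4, -0.35 for the iron transporter gene Slc11a2 and -0.22 for the citrate synthase gene Cs. Their limma adjusted p ran from 0.41 to 0.59. With age the values were 0.79 for Klf15, a glucocorticoid-induced factor, 0.58 for Cryab, a small heat shock protein, 0.39 for Errfi1, 0.36 for Pxmp2, 0.35 each for Cox17 and Maoa, 0.22 for Fech, 0.20 for Scp2 and 0.10 for Uqcrc2. Below 0 with age were Aco1 at -0.45, Ddit3 at -0.33 and Uqcrc1 at -0.18, and the limma adjusted p of these genes ran from 0.16 to 0.78. For batch 2 against batch 1 the values were 0.76 for Abcc4, an exporter, 0.72 for both Osgin1 and the haemoglobin receptor gene Cd163, 0.56 for both Pex2 and Ogdh, 0.49 for Maob, 0.43 for the thioredoxin reductase gene Txnrd1 and 0.40 for Acox3. Below 0 between batches were Blvrb at -0.97, Cyba at -0.74, Glrx5 at -0.40 and Txn2 at -0.33, and the limma adjusted p of these genes ran from 0.051 to 0.22.

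**Figure D4:**
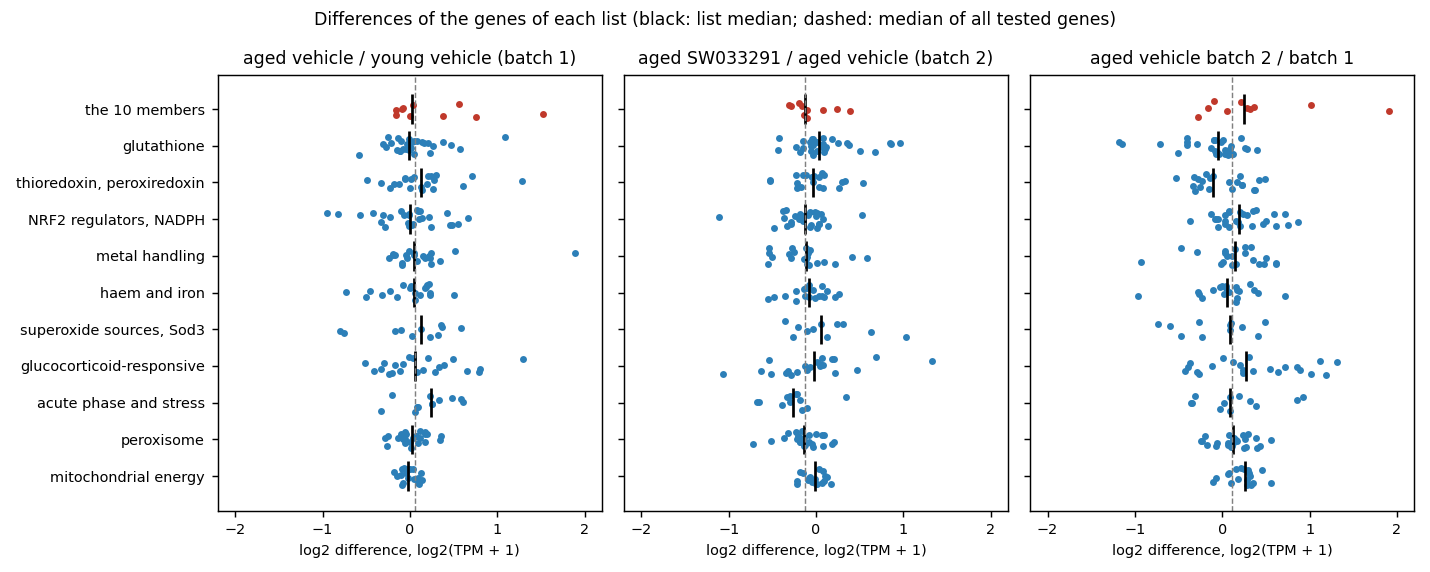
Log2 differences in log2(TPM + 1) of the 10 genes (top row, red) and of the tested genes of 10 pathway lists (blue) for the 3 comparisons, with each point a gene. Black bars are list medians and the dashed line is the median of all tested genes, 0.06 with age, -0.13 with SW033291 and 0.11 for batch 2 over batch 1.

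Across the 13 libraries, the genes most like each of the 10 were found by the Pearson r of deviations of log2(TPM + 1) from the group means. For Mt1 they were Mt2 (0.968), Fam175a (0.961) and Mcl1 (0.936), and for Mt2 they were Mt1, Tmem140 and Fam175a (0.908 each for the last 2). For Nqo1 they were Ric3 (0.977), Lactb2 and 1700123M08Rik (0.892 each), none of them among the 10. Hmox1 was closest to Zfp839 (0.915), Elmod3 (0.913) and Ankrd9 (0.861), and Gclc to Zfp759 (0.886), Fam98b (0.884) and D3Ertd254e (0.882). Gclm was closest to Mrpl36 (0.922), Pgm2 (0.86) and Fam213b (0.847), Sod1 to Tspan13 (0.939), Rrp36 (0.935) and Oaz1-ps (0.934), and Sod2 to Rbms1 (0.964), Kif3b (0.948) and Ndufs1 (0.936). Cat was closest to Cd81 (0.957), Atxn2 (0.953) and Slc48a1 (0.944), and Gpx1 to Ap1s1 (0.902), Ppp1r27 (0.901) and Fth1 (0.895). Among the 10 themselves, the strongest r after that of Mt1 with Mt2 were 0.73 for Nqo1 with Sod2, -0.72 for Gclc with Sod1 and -0.65 for Mt1 with Gpx1 and for Gclc with Cat. These values are the highest of 11876 genes over 13 libraries of 4 groups and describe these libraries only.

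The libraries had 10710 to 11687 genes at 1 TPM or more, with 38.4% to 45.1% of the TPM in the top 20 genes. TPM keeps no record of the reads behind it, so depth is unknown. All 14 muscle fibre markers were present and summed to 189000 to 236000 TPM. A list of 12 neutrophil markers, 11 of them in the table, summed to 6.15, 226 and 4.73 TPM with SW033291 and 759, 5.05 and 14.2 TPM with vehicle in batch 2. In batch 1 the list summed to 0.73, 3.98 and 1740.0 TPM in the aged and 0.61 to 2.21 TPM in the young libraries, where 7 of its genes were at 0 throughout. Aged vehicle replicate 8 of batch 2 and replicate 4 of batch 1 were thus not alike in neutrophil transcripts, while both were the lowest of their group in Mt1. Markers of fibro-adipogenic progenitors summed to 454 to 803 TPM in aged and 903 to 1250.0 TPM in young muscle of batch 1. A list of 11 adipocyte markers summed to 3600.0, 739 and 725 TPM with SW033291 and 540.0, 597 and 771 TPM with vehicle in batch 2. In batch 1 it summed to 678, 1280.0 and 847 TPM in the aged and 3120.0, 2090.0, 566 and 769 TPM in the young libraries. With SW033291 its 10 tested genes had a median log2 difference of 0.89, beside -0.13 over all tested genes, with 9 above 0. SW033291 replicate 1, at 3600.0 TPM, was also the highest SW033291 library for Mt1, Mt2 and Cat. Without it the differences with SW033291 were 0.06 for Mt1, -0.56 for Mt2 and -0.28 for Cat. This library also had the highest sum of 8 Schwann cell markers in its group, 149 TPM against 40.4 and 34.2 TPM. In the vehicle group of batch 2 the library with the highest adipocyte sum, replicate 8 at 771 TPM, was the lowest for Mt1, Mt2 and Cat. Beyond these values, the part of these cell types in the results was not tested.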

How the data were processed

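The authors deposited 1 table of TPM values for 24015 genes in 13 libraries. Tools and build were STAR, RSEM, DESeq2, DESeq and mm9, per the submitters' processing notes, without versions. Deposited beside it were the authors' comparisons for age (813 genes, none with an adjusted p above 0.0999) and for SW033291 (24013 genes). Per the file headers, their columns are the log2 fold change and its error, a test statistic (a score per gene), a p-value and a mean of normalised counts (a signal per gene). These values were used only where the authors' deposited table is named.

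In the TPM table, names and values stood on different rows. The 27 names turned into dates were restored, and all names were sorted in byte order and put back on the rows. As deposited, the log2 differences of SW033291 against vehicle had a Pearson r of -0.012 with the authors' deposited table over genes with a mean of at least 50 normalised counts, and 0.928 after this step. For age this check set the mean of the aged vehicle groups of both batches against young, unlike the batch 1 comparison used above. Over the genes of the authors' deposited table for age, with no minimum count, r was 0.002 before this step and 0.783 after. Every value rests on this order.

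After a filter of 1 TPM in at least 3 libraries, log2(TPM + 1) was fitted with limma 3.58.1 under R 4.3.3. One model with a coefficient for each of the 4 groups was fitted to all 13 libraries, with a trend on expression, and was tested on simulated data. P-values were adjusted over 11876 genes in each comparison. The genes and lists were chosen with earlier results of these data known. Named were the 10 genes, the called genes of each list (at most 4) or else the 2 with the lowest p, and the 3 genes most like each of the 10. Alternatives were another pseudocount, no filter, other scalings, only the compared groups, other aged libraries, a replicate block and each library left out. RefSeq promoter sequences are of GRCm38.p6, not of the authors' build, and were found for 8 of the 10 genes, with Hmox1 and Gclc having no entry.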

Additional observations from a re-analysis of the deposited data

Results flagged for a closer look

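Gclc in young vehicle muscle was flagged for 1 library far from the others. Young replicate 4 had 9.35 TPM, while the other three had 6.01 to 6.22 TPM. Each of the 10 genes was examined this way in the 4 young libraries, and chance alone flags about 1 in 20 such groups. Without replicate 4 the log2 difference of aged against young muscle for Gclc was 0.138, against 0.00 with it.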

How the results depend on the processing

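Of the values of the 10 genes under alternative settings, 143 of 170 with age, 110 of 120 with SW033291 and 128 of 140 between batches kept their direction and side of the threshold. None of the 10 genes was called, so none could lose a call. The called genes of the lists are not in these counts. Between batches, Slc39a1 and Stat3 did not pass with only the 2 groups (limma adjusted p = 0.272 and 0.321). After quantile normalization they did not pass either (limma adjusted p = 0.0697 and 0.07). The 54 genes called with age became 27 with no filter, 24 with only the 2 groups, 1679 with aged vehicle of batch 2 put in place of batch 1, 297 with both pooled and 19 to 92 with 1 library left out. With batch 2 in place and with both pooled, fits that mix age with batch, 2 of the 10 genes passed (Mt2 and Nqo1). A replicate block leaves in effect only the 4 libraries whose numbers are shared, so it changes the libraries as well. With age (numbers 3 and 4) it gave 6 calls, and the same 4 libraries without the block gave 2. Nfe2l1 (0.78) passed in neither (limma adjusted p = 0.872 and 0.996). Between batches (numbers 2 and 3) the block gave 905 calls and the same 4 libraries without it 1388. Both of these fits called 2 of the 10 genes, Mt1 (1.80) and Mt2 (2.62). Same-numbered libraries share only a number, with correlations of deviations of 0.171, 0.04, -0.147 and -0.06. The 0 calls with SW033291 became 4 with a pseudocount of 0.1 and 0 to 1 with 1 library left out. The 267 calls between batches, 204 higher and 63 lower, became 98 with quantile normalization (53 higher, 45 lower), 144 with median-of-ratios scaling (46 higher, 98 lower), 1 with only the 2 groups and 18 to 1643 with 1 library left out, where 0 to 2 of the 10 genes passed. With age the count moved by over 1.5 times without aged replicate 4 (92), aged replicate 2 or young replicate 1 (19 each), young replicate 5 (21) or young replicate 4 (26). Between batches it did so without batch 1 replicate 4 (1643), batch 2 replicate 8 (478), batch 1 replicate 2 (18) and batch 2 replicates 2 or 3 (21 each). With age, 44 of the called genes were higher and 10 lower, against 36 and 20 with median-of-ratios scaling, 41 and 30 with quantile normalization and 37 and 28 without the 20 most abundant genes.

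Reversed signs were all of uncalled genes, and the cause was not tested. With age, Gclc was -0.048 (quantile), -0.061 (median-of-ratios), -0.088 (without the 20 most abundant genes) and -0.119 (the 4 libraries numbered 3 and 4, with or without the block), and Cat -0.052, -0.034 and -0.061 under the first 3 of these, -0.054 with batch 2 in place and -0.009 pooled. With batch 2 in place Gclm was 0.203 and Sod2 0.059, and pooled Gclm was 0.021. With SW033291, Cat was 0.002 (quantile) and 0.037 (median-of-ratios), and Nqo1 was 0.003 and Sod1 0.04 with median-of-ratios scaling. Between batches Hmox1 was -0.081 (quantile) and -0.077 (median-of-ratios). With 1 library left out, values spanned 0 with age for Gclc (-0.116 to 0.138), Cat (-0.131 to 0.295) and Hmox1 (-0.277 to 0.107), with SW033291 for Mt1 (-0.64 to 1.016), Mt2 (-1.048 to 0.405), Gpx1 (-0.083 to 0.296) and Hmox1 (-0.004 to 0.476), and between batches for Hmox1 (-0.179 to 0.302) and Cat (-0.349 to 0.078). The block between batches and the fits of the same libraries without a block were chosen after seeing the data. With 3 or 4 libraries a group, the intervals of the metallothioneins do not exclude differences of over 1 log2 unit.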
